A study of Homo sapiens with 59 samples.

Results

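Neural stem cells that had received CHIR99021 for 30 h were set against those that had received it for 24 h or for 36 h. The comparison takes 9 libraries of the 59 in the series, 3 at each of these time points, labelled A1, A2 and B1. The 30 h time point was chosen from the values themselves, by its distance from its neighbours on the log2(TPM + 1) scale. Differences between 30 h and its neighbours are therefore given below as a description with their errors, without a test, and support nothing by themselves. Tests are given for the change from 24 h to 36 h and for the departure of 54 h from 48 h and 60 h, which answer other questions or use other libraries.

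Messenger RNA was sequenced from neural stem cells derived from the established human line WA09, also called H9, of embryonic stem cells. All libraries share the same preparation, per the labels' protocols: FGF8b at 200 ng per mL, then CHIR99021 in medium for neuromesodermal progenitors on an automated platform, then retinoic acid in neural stem cell medium for 4 days before lysis. CHIR99021 inhibits the kinase GSK3 and so activates canonical WNT signalling. From 24 h on, exposure to CHIR99021 was lengthened in steps of 6 h. The groups differ in that length: 24, 30 and 36 h here, and 48, 54 and 60 h in the comparison made a day later, where 48 h has 2 libraries. Medium with retinoic acid was replaced daily. Cells without CHIR99021 were not analysed here. Each time point is 1 harvest time, so whatever else differed between these harvests cannot be told apart from the length of exposure. The labels do not say whether the replicates were separate cultures, so the errors and p-values reflect how far these libraries vary, and that variation may be technical.

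The hypoxia response is run by HIF transcription factors, which are degraded when oxygen is at hand because EGLN prolyl hydroxylases mark them for the VHL ubiquitin ligase. Stabilised HIF raises glucose transporters, glycolytic enzymes, collagen hydroxylases and mitophagy receptors, and it acts through DNA sites whose core is often ACGTG. Ribosome biogenesis is the making of ribosomal RNA by RNA polymerase I and its processing and assembly in the nucleolus, a program that growing cells run at a high rate. Dividing stem cells and neural progenitors make many ribosomes and use much glycolysis.

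The deposited TPM are transcript shares scaled to a fixed total, from which sequencing depth cannot be read. Genes reaching 1 TPM numbered 11683 to 12591 in the libraries of 30 h and 11893 to 12745 in their neighbours. The 100 highest genes took 24.35% to 25.66% of the TPM at 30 h and 27.42% to 28.84% in the neighbours, without overlap. That share moves with the results below, and its part in them was not tested. Pearson correlations of log2(TPM + 1) were 0.901 to 0.943 among the libraries of 30 h, 0.862 to 0.942 between them and their neighbours, and 0.886 to 0.938 between 24 h and 36 h. By the labelled cell type, SOX2, a neural stem cell factor, was at 64.7, 60.0 and 53.7 TPM at 30 h, below its 6 neighbours at 72.1 to 164 TPM. Of the other cell types the culture could hold, SOX17 and GATA4 of endoderm, T and MSGN1 of mesoderm, SOX10 and FOXD3 of neural crest, HAND1 and HAND2 of lateral mesoderm and PTPRC of blood were listed at 0 in all 9 libraries. POU3F3 of the neural progenitor list was also listed at 0 in all 9. LIN28A, an RNA-binding protein of early embryonic cells, was at 788 to 1453 TPM in these libraries, and NANOG, a pluripotency factor, was at most at 5.91 TPM.

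Of the 15305 genes tested, those that reached 1 TPM in 3 or more libraries, 688 (4.50%) were past an adjusted p of 0.05 in limma at 30 h against the mean of 24 h and 36 h. They were 390 higher genes (2.55%) and 298 lower genes (1.95%), and in 211 and 180 of these the log2 difference was 1 or larger in size. In 387 of the 390 the mean at 30 h was above the means of both neighbours, and in 297 of the 298 it was below both. The 3 libraries of 30 h lay outside the 6 neighbours in 339 of the higher and 252 of the lower genes. Over all tested genes they lay above in 1062 (6.94%) and below in 707 (4.62%), together 11.6%. USP38 at 0.99 and BRD9 at 1.06 on the log2 scale were just inside the threshold, and TAP1 at -2.15 just outside it. Higher genes made up 56.7% of the calls, against 46.7% with median-ratio scaling and 45.2% with quantile normalization. Without the A2 library of 30 h 333 genes were called and without the B1 library 448. When 3 libraries of other time points with few detected genes were left out, 1707 were called.

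The same contrast, each time point against the mean of those 6 h before and after it, was made from 12 h to 66 h. It called 1278 genes at 54 h (8.35%) and 465 at 48 h (3.04%), and at 24 h, which shares libraries with the contrast at 30 h, 152 (0.993%). It called 94 genes at 60 h (0.614%), 35 at 12 h (0.229%), 27 at 36 h (0.176%), 16 at 66 h (0.105%), 4 at 18 h (0.0261%) and 3 at 42 h (0.0196%). The counts at 30 h and at 54 h, a day apart, thus stood above those 6 h earlier and 6 h later. Neighbouring contrasts share libraries, and the low count at 42 h comes with 1 library of few detected genes.

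**Figure D1:**
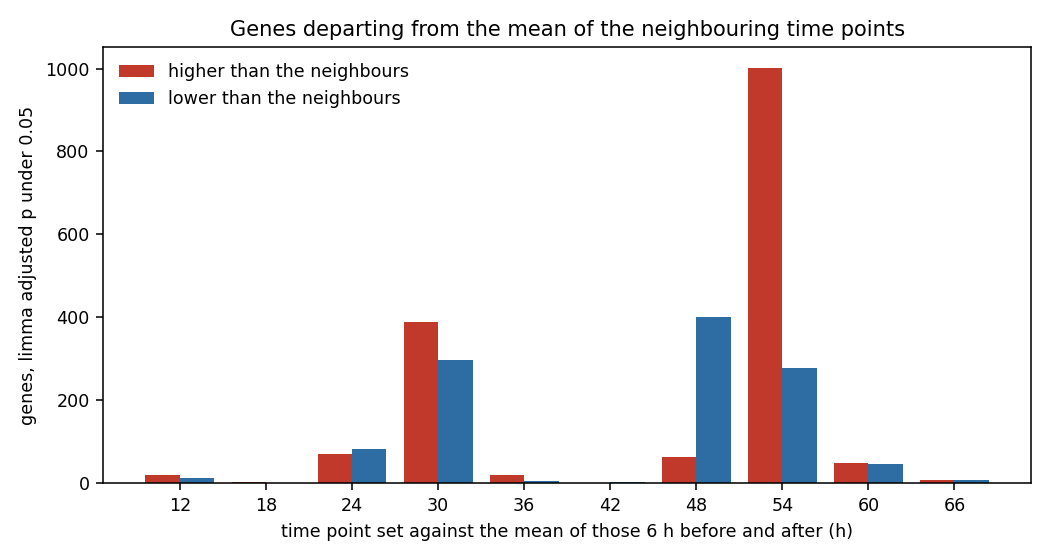
Number of genes past an adjusted p of 0.05 in limma (y axis) when each time point (x axis, h of CHIR99021) is set against the mean of the time points 6 h before and after, for genes above (red) and below (blue) that mean. The bars stand at 390 and 298 genes at 30 h and at 1001 and 277 at 54 h, and 48 h has 401 lower genes.

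Genes of the hypoxia response were lower at 30 h. Of 30 such genes, all tested, 16 were called lower and none higher, beside 1.95% of all genes called lower, and 28 had a negative difference. Their median difference was -1.14 on the log2 scale, against 0 over all tested genes. The list was written with earlier results of these data known, and its median stayed negative in all 25 settings tried, between -1.22 and -1.00. BNIP3, a mitochondrial protein that sets off mitophagy, was at 299, 339.6 and 307 TPM at 24 h, at 64.9, 72.6 and 48.3 TPM at 30 h and at 425, 399 and 409.8 TPM at 36 h. Its 3 libraries of 30 h lay far below all 6 neighbours, and the difference was -2.54 ± 0.19 (SE). P4HA1, a prolyl hydroxylase that matures collagen, was at 452, 447 and 459 TPM at 24 h, 90.5, 88.1 and 132 TPM at 30 h and 429.6, 476 and 494 TPM at 36 h. That is a difference of -2.16 ± 0.18 with no overlap.

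PFKFB4, which makes the activator of phosphofructokinase, was at 35.6, 36.7 and 50.5 TPM at 24 h, 7.07, 2.72 and 3.61 TPM at 30 h and 84.8, 85.9 and 91.5 TPM at 36 h. Its difference of -3.55 ± 0.40 was the lowest of the list. DDIT4, an inhibitor of mTORC1 that both hypoxia and other stresses raise, was at 711, 748 and 684 TPM, then 257, 391 and 219 TPM, then 854, 647 and 718 TPM, a difference of -1.37 ± 0.20. In both genes the 3 libraries of 30 h lay below all their neighbours. ANKRD37 and FAM162A, both induced by HIF, were called although the groups overlapped, and the call of ANKRD37 was lost in 12 of 25 settings. ANKRD37 was at 9.61, 0 and 0 TPM at 30 h against 0 to 36.9 TPM in the neighbours, and FAM162A at 26.9, 2.33 and 78.4 TPM against 49.3 to 223 TPM. FAM162A had its A2 library far below the other libraries of 30 h. Members not called with the highest levels were HILPDA, PFKFB3 and STC2, with differences of -0.74, -0.13 and -1.14. The member that went against the list, not called either, was ADM, a vasodilator peptide, at 51.0, 29.2 and 44.0 TPM against 15.7 to 30.7 TPM in its neighbours, with overlap.

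The HIF factors themselves were not called. HIF1A, the inducible subunit whose protein rather than RNA is regulated by oxygen, was at 343, 290.1 and 264 TPM at 24 h, 265, 223 and 299.8 TPM at 30 h and 252, 275 and 336 TPM at 36 h. The groups overlapped, with a difference of -0.16 ± 0.22. EPAS1, encoding HIF2A, was listed at 0 in 8 of the 9 libraries. Of 11 regulators of the pathway 2 were called lower and none higher, beside 1.95% of all genes lower. They were EGLN1 at -1.13 ± 0.25 and EGLN3 at -0.91 ± 0.23. Both are oxygen-sensing hydroxylases that are themselves HIF targets, and both stand in the hypoxia list too. Neither was called without the libraries labelled A1, and their calls were lost in 3 and 5 of 25 settings. EGLN2 differed by -0.03, HIF1AN, the asparaginyl hydroxylase, by 0.27, and CITED2, which competes with HIF for its coactivator, by -0.50. VHL was at 77.2, 75.7 and 78.6 TPM at 30 h, above all its neighbours at 43.8 to 62.4 TPM, and was not called. The constitutive partners ARNT and ARNT2 differed by -0.45 and -0.20 and HIF3A by -0.38, with overlap.

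The 250 bases upstream of the transcription start were read for members of these lists from RefSeq on GRCh38.p14, 1 start per gene, and searched for ACGTG on both strands, so as ACGTG or CACGT. The search overlaps that for the E-box CACGTG, which other factors bind. It was found in 13 of 24 hypoxia genes with a sequence (54.2%), in 8 of 17 glycolysis genes (47.1%), in 6 of 25 ribosome biogenesis genes (24%) and in 5101 of all 27303 promoters (18.7%). Among called genes the share was 29.1% of the 258 lower and 27.1% of the 321 higher genes with a sequence, against 22.4% of 12283 tested genes. A match is a run of letters and not a bound site. The hypoxia list was written as targets of HIF, so its share comes with that choice and is no result about 30 h. The 4 windows printed are those of hypoxia or glycolysis genes with large lower differences that hold the motif and whose libraries did not overlap. These genes were chosen after their values were seen, and need not have the 4 largest such differences. The windows show the motif and the bases around it, and capitals mark the motif or, in BNIP3, the E-box that holds it on both strands. The windows are chr10:131981924-131982173 on the minus strand for BNIP3, chr10:73096867-73097116 on the minus strand for P4HA1, chr2:118088221-118088470 on the plus strand for INSIG2, an anchor that holds back cholesterol synthesis, and chr2:74833877-74834126 on the plus strand for HK2, which traps glucose in the cell.
BNIP3: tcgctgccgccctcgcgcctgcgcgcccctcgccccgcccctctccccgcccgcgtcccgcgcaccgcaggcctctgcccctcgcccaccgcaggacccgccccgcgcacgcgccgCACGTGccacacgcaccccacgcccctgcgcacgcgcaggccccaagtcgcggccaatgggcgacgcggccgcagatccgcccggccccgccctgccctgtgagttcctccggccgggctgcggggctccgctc
P4HA1: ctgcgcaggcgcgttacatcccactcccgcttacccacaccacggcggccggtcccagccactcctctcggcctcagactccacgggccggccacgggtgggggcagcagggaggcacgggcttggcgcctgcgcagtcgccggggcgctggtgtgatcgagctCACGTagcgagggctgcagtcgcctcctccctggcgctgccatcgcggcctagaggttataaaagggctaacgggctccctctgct
INSIG2: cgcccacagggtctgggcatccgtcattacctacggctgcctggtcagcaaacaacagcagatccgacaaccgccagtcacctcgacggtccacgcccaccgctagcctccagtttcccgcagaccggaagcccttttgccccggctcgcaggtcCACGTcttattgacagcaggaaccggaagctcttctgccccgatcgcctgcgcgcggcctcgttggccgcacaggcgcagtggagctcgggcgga
HK2: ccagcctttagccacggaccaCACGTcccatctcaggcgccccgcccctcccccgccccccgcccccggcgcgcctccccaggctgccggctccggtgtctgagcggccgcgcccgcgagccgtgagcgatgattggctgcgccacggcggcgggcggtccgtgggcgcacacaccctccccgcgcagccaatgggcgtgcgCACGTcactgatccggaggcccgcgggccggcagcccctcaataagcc
BNIP3, P4HA1 and INSIG2 hold 1 such stretch each and HK2 holds 2, at 229 and 48 bases before the start. The matched stretch lies 86 bases before the start in P4HA1 and 95 bases before it in INSIG2. INSIG2 itself was at 41.7, 13.3 and 29.0 TPM at 30 h against 46.2 to 117 TPM in its neighbours, and differed by -1.66 ± 0.25.

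Most genes of glycolysis were lower as well, while the lactate carriers of the list went opposite ways. Of 18 genes 11 were called lower and 1 higher, beside 1.95% and 2.55% of all genes, with a median of -0.70, and 15 had all 3 libraries of 30 h below their neighbours, against 4.62% of all genes. SLC16A3, the lactate exporter MCT4, was at 126, 199.6 and 123 TPM at 24 h, 15.8, 42.7 and 16.9 TPM at 30 h and 236, 283 and 281 TPM at 36 h, a difference of -3.07 ± 0.36. LDHA, which makes lactate, was at 1833, 1923 and 1676 TPM, then 948, 902 and 974 TPM, then 2466, 2475 and 2240 TPM, a difference of -1.14 ± 0.16. Both were low in each library of 30 h and high in each neighbour. HK2 differed by -1.65 ± 0.24, the enolase ENO2 by -1.04 ± 0.17 and TPI1, triose phosphate isomerase, by -0.85 ± 0.17. ENO1 and GAPDH, the most abundant members not called, were lower in each library of 30 h than in any neighbour, at -0.45 and -0.44. The called higher member was SLC16A1, the lactate carrier MCT1, at 295, 322 and 355 TPM at 30 h against 185 to 221 TPM in its neighbours, a difference of 0.65 ± 0.16. PFKM was at 0.24 with overlap. Without the libraries labelled A1 6 genes of the list were called lower.

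**Figure D2:**
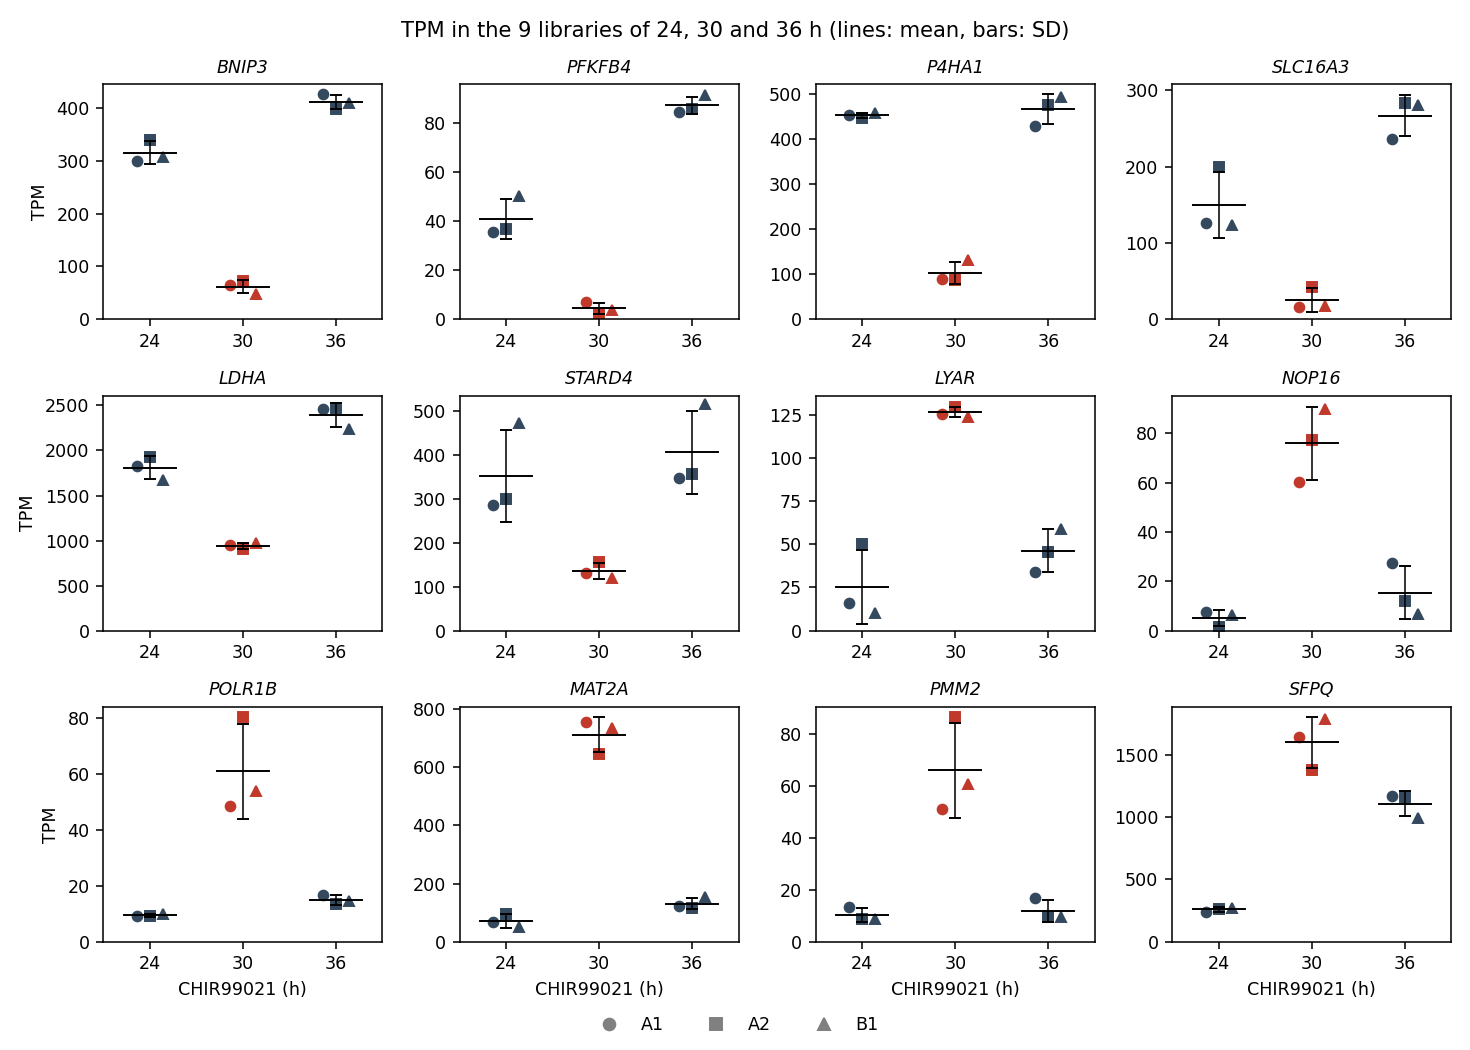
TPM of 12 genes (y axes, from 0) in each library at 24, 30 and 36 h of CHIR99021 (x axes), with 30 h in red, replicate labels as marker shapes, horizontal lines at the mean and bars for the SD of 3 libraries. The 6 genes from BNIP3 to STARD4 are lower in every library of 30 h than in any neighbour and the 6 from LYAR to SFPQ higher, and SFPQ is higher at 36 h than at 24 h.

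Ribosome biogenesis genes were higher at 30 h. Of 30 genes, all tested, 16 were called higher and none lower, beside 2.55% of all genes called higher, with a median of 1.27. All 3 libraries of 30 h lay above the neighbours in 20 of the 30, beside 6.94% of all genes. Without the libraries labelled A1 10 were called. POLR1B, the second-largest subunit of RNA polymerase I, was at 9.20, 9.18 and 9.90 TPM at 24 h, 48.6, 80.5 and 54.0 TPM at 30 h and 16.9, 13.5 and 14.8 TPM at 36 h, a difference of 2.23 ± 0.36. LYAR, a nucleolar protein of ribosomal RNA processing, was at 15.8, 50.0 and 10.1 TPM, then 126, 129.8 and 124 TPM, then 34.1, 45.8 and 59.1 TPM, a difference of 2.03 ± 0.59 whose call was lost in 12 of 25 settings. MYBBP1A, a nucleolar protein of ribosomal RNA processing, was at 42.7, 43.6 and 42.5 TPM at 30 h against 4.84 to 16.1 TPM in its neighbours. The 3 genes did not overlap between 30 h and its neighbours. NOP16 and RRS1, assembly factors of the large subunit, differed by 3.14 ± 0.94 and 2.43 ± 0.55. Of the abundant nucleolar proteins, NPM1 differed by 0.10, NCL by 0.40 and the rRNA methyltransferase FBL by -0.02, none of them called and all with overlap.

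The ribosome's own proteins gave a different picture. None of 40 cytosolic ribosomal protein genes was called, although 36 had a negative difference, with a median of -0.20. Mitochondrial ribosomal proteins had a median of 0.46 over 26 genes. Of these MRPL15 at 1.36 ± 0.24 and MRPL3 at 0.61 ± 0.15 were called higher, beside 2.55% of all genes. Neither was called without the libraries labelled A1. Of 12 genes of the MYC network, MGA, a repressive partner of MAX, was the one call, higher at 0.94 ± 0.29, beside 2.55% of all genes. This call was lost in 15 of 25 settings. MYCN was at 70.2, 119.8 and 89.7 TPM at 30 h against 17.8 to 50.2 TPM and MAX at 92.3, 65.2 and 65.7 TPM against 19.5 to 49.7 TPM, both above all their neighbours yet not called, at 1.38 ± 0.54 and 1.25 ± 0.55. MYCL1 lay below all its neighbours at -0.81, and was not called either. In the network 4 genes lay above all their neighbours and 3 below, beside 6.94% and 4.62% of all genes.

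Among the other genes with the largest differences, MAT2A, which makes the methyl donor S-adenosylmethionine, was at 68.8, 96.7 and 50.8 TPM at 24 h, 756, 646 and 736 TPM at 30 h and 123, 117 and 154 TPM at 36 h. It differed by 2.89 ± 0.40, with every library of 30 h above every neighbour. PMM2, an enzyme of protein glycosylation, differed by 2.47 ± 0.38 and WNT4, a WNT ligand, by 2.74 ± 0.57. METTL1 and WDR4, the subunits of a tRNA methyltransferase, differed by 2.61 ± 0.77 and 2.83 ± 0.76, and PUS1, a tRNA pseudouridine synthase, by 2.60 ± 0.71. PTRH2, a mitochondrial peptidyl-tRNA hydrolase, differed by 3.21 ± 0.98, ZNHIT2 by 2.68 ± 0.81, C14orf149 by 3.03 ± 0.76 and the readthrough transcript PPAN-P2RY11 by 3.10 ± 0.78. The last shares its reads with PPAN, so its value is uncertain. These 12 highest genes, with NOP16 and RRS1 among them, were chosen by size among called genes without overlap. The calls of PTRH2, ZNHIT2, NOP16, METTL1, WDR4 and PUS1 were lost in 16, 13, 12, 12, 11 and 11 of 25 settings.

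On the lower side, SLC2A12 and SLC2A11, glucose transporters, differed by -2.93 ± 0.54 and -2.54 ± 0.71. KLF7, a zinc finger factor of neurons, differed by -2.66 ± 0.69, IRF2, an interferon regulatory factor, by -2.57 ± 0.66 and NYAP1, a neuronal adaptor, by -2.56 ± 0.49. CNRIP1, which binds the cannabinoid receptor, differed by -2.82 ± 0.64 and FAM100B by -2.64 ± 0.65. Each of these 7 genes was listed at 0 in at least 1 library of 30 h. The histone genes HIST2H4A and HIST2H4B, listed at 0 in the 3 libraries of 30 h, hold identical values and cannot be told apart. DDT, at -2.90 ± 0.74, has near-identical copies, so its value and those of the histone genes are uncertain. The calls of SLC2A11, IRF2, KLF7, FAM100B and DDT were lost in 8, 7, 5, 5 and 5 of 25 settings. Those of both histone genes were lost in 7 of 25, of SLC2A12 in 2, of NYAP1 in 1 and of CNRIP1 in 3 of 24.

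Genes of lipid metabolism were lower in part. Of 25 genes of cholesterol synthesis and uptake 3 were called lower and none higher, beside 1.95% of all genes lower. Leaving out the libraries labelled A1 left 1 call, leaving out those labelled A2 or B1 left 2, and there were 6 without the 3 libraries with few detected genes. STARD4, a sterol carrier, was at 287, 299 and 474 TPM at 24 h, 132, 156 and 119 TPM at 30 h and 347, 357 and 516 TPM at 36 h, a difference of -1.45 ± 0.25 with no overlap. FDFT1, squalene synthase, differed by -0.80 ± 0.16 and SREBF2, the master regulator of the pathway, by -0.78 ± 0.20. HMGCS1, an early enzyme of the pathway, differed by -0.32 and SQLE, squalene epoxidase, by 0.32, with overlap. The list's median was -0.10, and its sign turned in 1 of 25 settings. In fatty acid synthesis the desaturases SCD and FADS1 were called lower, at -0.72 ± 0.18 and -0.60 ± 0.15, 2 of 10 genes beside 1.95% of all genes, and neither was called without the libraries labelled A1.

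Targets of FOXO factors and of glucose sensing had a median of -0.77 over 15 genes, with 3 called lower, beside 1.95% of all genes, and 1 against 36 h alone. The thioredoxin-binding TXNIP, which restrains glucose uptake, was at 177, 181 and 169 TPM at 30 h against 264 to 421 TPM in its neighbours. IGFBP5, which binds insulin-like growth factors, differed by -0.83 ± 0.18 and CCNG2, an atypical cyclin of arrested cells, by -0.79 ± 0.15. Of 27 mitosis genes 6 were called lower and none higher, beside 1.95% of all genes lower. A negative difference was found in 24 of the 27, beside 7356 of all 15305 genes, with a median of -0.41. TOP2A, the topoisomerase of dividing cells, was at 271, 342 and 324 TPM at 30 h against 437 to 557 TPM, and BUB1, a checkpoint kinase, at 54.8, 41.3 and 50.8 TPM against 74.0 to 122 TPM. NUSAP1, CENPE and KIF11, which act on the spindle, differed by -0.68, -0.76 and -0.63. MAD2L1, UBE2C and CCNB1, the 3 highest of the list that were not called, differed by 0.16, -0.75 and 0.09. Without the A1 library of 30 h 1 mitosis gene was called, without the A2 library 2 and without the B1 library 4, and against 36 h alone 0. With the libraries labelled A1 left out at every time point, none was called lower. None of 30 DNA replication genes was called, and their median was 0.09.

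Of 15 heat shock genes 3 were called higher, beside 2.55% of all genes, and none lower, and against 36 h alone none was called higher. HSPH1 and CHORDC1, which work with heat shock chaperones, differed by 1.21 ± 0.17 and 0.60 ± 0.17. HSPA8, the constitutive chaperone, was at 1116, 1071 and 1167 TPM at 24 h, 2118, 2256 and 2159 TPM at 30 h and 2303, 2175 and 2409 TPM at 36 h, so it was called at 0.44 ± 0.11 while its libraries lay within or below those of 36 h. The call of CHORDC1 was lost in 13 of 25 settings. Of 15 endoplasmic reticulum genes HERPUD1, of protein degradation there, was called higher at 1.53 ± 0.32, and HSPA5, the main chaperone, differed by 0.39. SLC7A5, a carrier of large amino acids, was called higher at 1.24 ± 0.32 and VLDLR, a lipoprotein receptor, lower at -0.74 ± 0.20, of 23 genes of the amino acid response. TXNRD1 and GCLC, antioxidant enzymes, were called higher at 0.65 ± 0.13 and 1.12 ± 0.22, 2 of 17 genes of oxidative stress beside 2.55% of all genes. CCNG1 was called lower at -0.61 ± 0.15 of 18 p53 targets, and JUND at -1.27 ± 0.34 of 21 immediate early genes. NDUFS1, of complex I, was called higher at 0.79 ± 0.19 of 34 oxidative phosphorylation genes. These calls of 1 gene in a direction stand beside 2.55% of all genes higher and 1.95% lower. Without the libraries labelled A1 those of the endoplasmic reticulum, amino acid and p53 lists were lost, and without those labelled A2 that of JUND. NDUFS1 was not called with only the contrast's libraries in the fit. The calls of HERPUD1, CCNG1, JUND, SLC7A5, NDUFS1 and VLDLR were lost in 2, 5, 5, 6, 6 and 7 of 25 settings.

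Of 21 clock genes 4 were called, beside 4.50% of all genes. Without the libraries labelled A1 none was called higher, and without those labelled A2 none lower. RORA, an activator of the clock loop, was at 40.9, 49.9 and 34.4 TPM at 24 h, 11.2, 4.98 and 11.9 TPM at 30 h and 25.5, 26.9 and 20.3 TPM at 36 h, and NFIL3, a repressor, differed by -1.06 ± 0.26. CSNK1D, the kinase of the PER proteins, was called higher at 0.67 ± 0.16. NR1D2, a repressor of the loop, was called higher at 0.62 ± 0.18, but it was at 88.5, 73.5 and 69.7 TPM at 24 h, 70.1, 63.9 and 84.5 TPM at 30 h and 29.3, 35.6 and 21.2 TPM at 36 h, so its libraries of 30 h lay among those of 24 h, and 30 h minus 24 h alone gave -0.086. NPAS2 did not pass the filter on low values, and the core factors were not called. ARNTL differed by -1.93 ± 0.67, CLOCK by 0.46, PER1 by 1.12 ± 0.49, PER2 by 1.13 ± 0.49, PER3 by 0.08, CRY1 by 0.32 and CRY2 by -0.04. ARNTL lay below all its neighbours, and PER1 and CRY1 above theirs. Of the output and accessory genes, TEF, DBP, BHLHE40, C1orf51 (CIART), RORB, NR1D1 and CSNK1E differed by 0.41, -0.47, -0.53, -0.52, 0.85, 0.31 and -0.34, while BHLHE41 and HLF were at most at 1.34 and 0.160 TPM.

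Of 15 neural progenitor genes 2 were called lower and 1 higher, and of 18 neuronal genes 3 lower and none higher, beside 1.95% and 2.55% of all genes. Without the libraries labelled A1, or without those labelled A2, no progenitor gene was called lower. NES, an intermediate filament of progenitors, was called higher at 0.45 ± 0.14, and the transcription factors PAX6 and NR2F1 lower at -0.53 ± 0.13 and -1.13 ± 0.30. Among neuronal genes NEUROG2, which commits progenitors to neurons, SYT1, a synaptic vesicle protein, and MAP2, of dendrites, were called lower at -2.14 ± 0.50, -1.55 ± 0.46 and -0.84 ± 0.16. The calls of SYT1, NES, HOXB9 and SKIL were lost in 14, 13, 13 and 10 of 25 settings. The summed TPM of the 18 was 319 to 482 at 30 h, 526 to 624 at 24 h and 522 to 664 at 36 h. That of the 16 progenitor markers was 3353 to 3557, 4007 to 4381 and 3626 to 4108, and CDH2 and VIM make up most of it. The sum of the pluripotency markers was lower at 30 h too, at 1450 to 1647, 1973 to 2109 and 1662 to 1695. Sums of the other marker lists overlapped the neighbours or, in lateral mesoderm, lay between 24 h and 36 h. In bulk RNA fewer cells of a type and less RNA per cell cannot be told apart. KRT19, a keratin, was called lower at -1.74 ± 0.28 of 12 epithelial genes, whose summed TPM of 280 to 497 overlapped the neighbours. No gene of endoderm, mesoderm, neural crest, pluripotency or endothelium was called. Of the patterning lists, none of 12 HOX genes of groups 1 to 4, 14 WNT targets and 16 Notch genes was called. FGFR3, of 14 genes of FGF feedback, was called lower at -0.77 ± 0.18. The retinoic acid receptor RARB, of 16 retinoic acid genes, was called lower at -0.75 ± 0.17. Neither was called without the libraries labelled A1. SKIL, an inhibitor of TGF-beta signalling, was called higher at 0.79 ± 0.23 of 14 genes of the BMP and TGF-beta list. HOXB9 was called lower at -1.25 ± 0.37 of 11 HOX genes of groups 5 to 9. It stood at 3.27, 0.710 and 0 TPM at 30 h, near its level at 24 h, and at 14.7, 4.16 and 19.1 TPM at 36 h. The single calls of KRT19, FGFR3, RARB, SKIL and HOXB9 in their lists stand beside 1.95% of all genes lower and 2.55% higher.

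**Figure D3:**
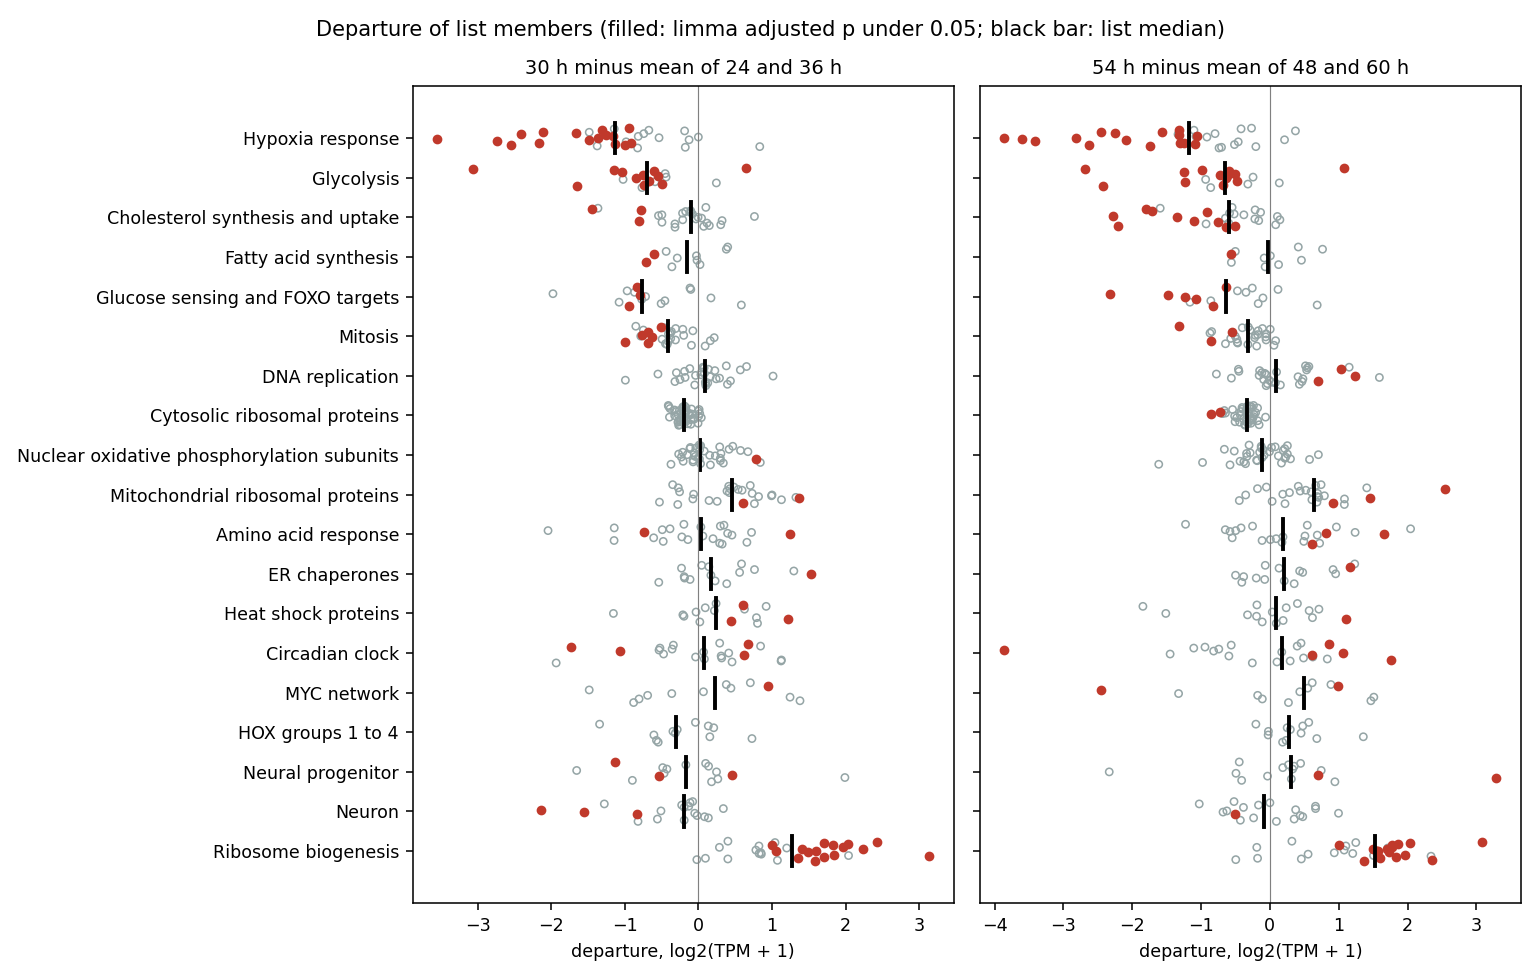
Difference of each list member on the log2(TPM + 1) scale (x axis) for 19 gene lists (y axis), at 30 h against 24 and 36 h (left) and at 54 h against 48 and 60 h (right). Filled points are past an adjusted p of 0.05 in limma and black bars are list medians. The medians of the hypoxia response are -1.14 and -1.18 and those of ribosome biogenesis 1.27 and 1.53.

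The neighbours were compared with each other as well. Of 15305 genes 50 (0.327%) passed the threshold in limma, 20 higher (0.131%) and 30 lower (0.196%) at 36 h, and 12 of them were also among the 688 called at 30 h. Leaving out the B1 library of 24 h left 27 calls, the B1 library of 36 h 25, and leaving out the 3 libraries with few detected genes gave 220. HOXB9, a posterior HOX gene, rose by 2.71 (adjusted p = 2.2e-04, limma). SFPQ, an RNA-binding protein of paraspeckles, was at 239, 267 and 275 TPM at 24 h, 1639, 1382 and 1784 TPM at 30 h and 1171, 1160 and 996 TPM at 36 h. It rose by 2.09 from 24 h to 36 h (adjusted p = 3.9e-13, limma), and its libraries of 30 h lay above those of both. TNFRSF19, a WNT target, rose by 2.11 (adjusted p = 8.2e-04, limma). TMEM183B and TBC1D29, members of gene families with near copies, rose by 2.23 and 2.27, and are uncertain. RRAD, a small GTPase, CYS1, of cilia, PI15, UNC93B1 and PRSS8 fell by 3.94, 3.04, 2.88, 2.86 and 2.72. No gene of the hypoxia, glycolysis or FOXO lists passed the threshold between 24 h and 36 h, and 1 of 30 ribosome biogenesis genes did. That does not show equal levels: the hypoxia list had a median of 0.35, and on simulated data this contrast recovered 12% of genes with a log2 change of 1 and 47% with a change of 2.

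The same contrast was then made at 54 h, in 8 libraries that the choice of 30 h did not use. It called 1278 genes (8.35%), 1001 higher (6.54%) and 277 lower (1.81%). The median over all genes was 0.10 at 54 h and -0.01 with median-ratio scaling, which gave 50.5% higher calls in place of 78.3%, and quantile normalization gave 56.3%. Leaving out any 1 of the 3 libraries of 54 h left 784 to 788 calls, and leaving out the 3 libraries with few detected genes gave 2598. The libraries of 54 h lay above all 5 neighbours in 1977 genes (12.9%) and below them in 684 (4.47%). Of the 688 genes called at 30 h, 394 were called at 54 h in the same direction, 280 higher and 114 lower, and none in the opposite direction. That is 57.3% of the calls at 30 h and 30.8% of those at 54 h. In sign alone, 370 of the 390 higher genes were positive at 54 h, against 56.0% of all tested genes, and 287 of the 298 lower genes negative, against 40.8%. The recurrence at 54 h was partly known when 30 h was singled out, so it is no independent support.

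**Figure D4:**
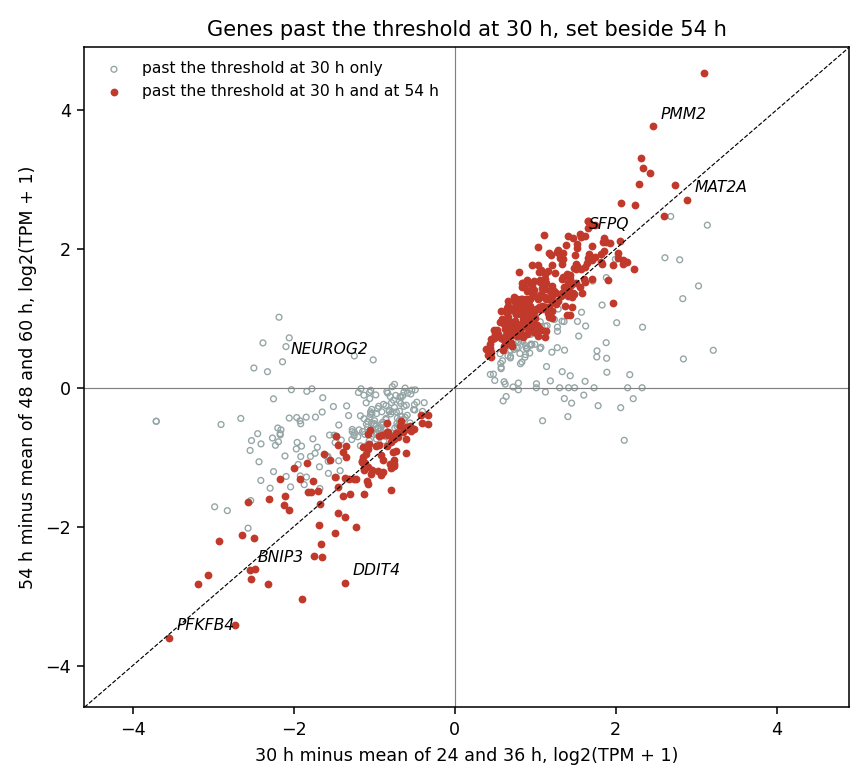
Difference at 54 h from 48 and 60 h (y axis) against difference at 30 h from 24 and 36 h (x axis), on the log2(TPM + 1) scale, for the 688 genes called at 30 h, filled where also called at 54 h (394). Points lie near the dashed line of equality for PFKFB4 and BNIP3, DDIT4 lies below it, and NEUROG2 is among the genes low at 30 h and not at 54 h.

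At 54 h 16 of 30 hypoxia genes fell and none rose, against 1.81% of all genes lower, and a median of -1.18. Without the libraries labelled A1 10 fell. Of the 16 genes called at 30 h 13 were called. BNIP3 was at 278 and 307 TPM at 48 h, 56.4, 70.6 and 51.3 TPM at 54 h and 380.0, 463 and 561 TPM at 60 h, and fell by 2.62 (adjusted p = 3.3e-13, limma). PFKFB4 fell by 3.60 (adjusted p = 2.9e-08, limma) and P4HA1 by 1.31 (adjusted p = 3.5e-06, limma). In all 3 genes each library of 54 h lay below each of 48 h and 60 h. HIF1A was at 212, 208 and 204 TPM at 54 h against 130 to 201 TPM, above each neighbour, and did not pass (adjusted p = 0.61, limma). Of 18 glycolysis genes 12 fell, beside 1.81% of all genes, and 4 fell without the libraries labelled A1. Among them HK2 fell by 2.43 (adjusted p = 1.2e-09, limma), and SLC16A1 rose. Of the 12 glycolysis genes called at 30 h 11 were called at 54 h.

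Of 30 ribosome biogenesis genes 16 rose at 54 h and none fell, against 6.54% of all genes higher, and a median of 1.53. Of the 16 called at 30 h 15 were called. RRS1 was at 8.80 and 5.90 TPM at 48 h, 103, 91.1 and 123 TPM at 54 h and 19.0, 15.6 and 19.5 TPM at 60 h, and rose by 3.09 (adjusted p = 2.0e-04, limma). MAT2A rose by 2.71 (adjusted p = 1.2e-05, limma), PMM2 by 3.76 (adjusted p = 2.6e-09, limma) and WNT4 by 2.92 (adjusted p = 6.4e-04, limma). All 3 stood higher in each library of 54 h than in any of 48 h or 60 h. NOP16 was at 103, 84.6 and 89.8 TPM against 8.48 to 23.9 TPM, and did not pass (adjusted p = 0.15, limma).

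In other lists the calls at 54 h were in part of other genes than at 30 h, and whether the lists differ between the time points was not tested. Of cholesterol genes 10 of 25 fell at 54 h, with a median of -0.60, beside 1.81% of all genes, and 3 were called at 30 h. Without the libraries labelled A1 5 cholesterol genes fell. Of mitosis genes 3 of 27 fell at 54 h, beside 1.81% of all genes, and 6 were called at 30 h, with NUSAP1 in both. Without the libraries labelled A1 no mitosis gene was called lower at either time point. SYT1 and NEUROG2 did not pass at 54 h, where they differed by -0.68 and 0.37, while MAP2 fell by 0.51 (adjusted p = 0.048, limma). RORA and NFIL3 differed by -0.94 and -0.82 and did not pass. Of 21 clock genes 4 rose at 54 h and 1 fell, beside 6.54% and 1.81% of all genes. Without the libraries labelled A1 no clock gene was called at 54 h. TEF rose by 1.06 and PER2 by 1.76 (adjusted p = 0.025 and 0.021, limma). BHLHE40, a clock repressor and HIF target, was at 0, 0.300 and 0.600 TPM at 54 h against 5.90 to 56.4 TPM, and fell by 3.86 (adjusted p = 8.4e-04, limma).

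The departures at 54 h and at 30 h were also set against each other. This contrast uses the libraries by which 30 h was chosen, so its calls are a description and no p is given. Past the threshold in limma were 6 genes (0.0392%), 4 with a higher (0.0261%) and 2 with a lower departure at 54 h (0.0131%). DDIT4 is the one of them that was called at 30 h. It was at 134, 92.3 and 183 TPM at 54 h against 797 to 1155 TPM, a departure of -2.81 beside -1.37 at 30 h.

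Levels at 30 h came near those at 6 h in some of these genes and not in others. BNIP3 had a mean TPM of 67.2 ± 15.7 at 6 h, 62.0 ± 12.4 at 30 h and 59.4 ± 10.0 at 54 h (SD, n = 3 each), and 363 ± 22.3 TPM at 12 h. MAT2A went the other way: its mean was 671 ± 32.5 at 6 h, 713 ± 58.8 at 30 h and 544 ± 42.0 at 54 h, and 177 ± 14.1 at 12 h, all in TPM (SD, n = 3). DDIT4 was lower at 6 h and at 54 h, at 96.6 and 137 TPM, than at 30 h, at 289 TPM. TPI1 and ENO1, at means of 561 and 3571 TPM at 30 h, were at 1032 and 4739 TPM at 6 h, and P4HA1, at 103 TPM at 30 h, was at 63.2 TPM at 6 h and 189 TPM at 54 h. At 6 h no time point 6 h before exists, so no contrast of the same kind was made.

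**Figure D5:**
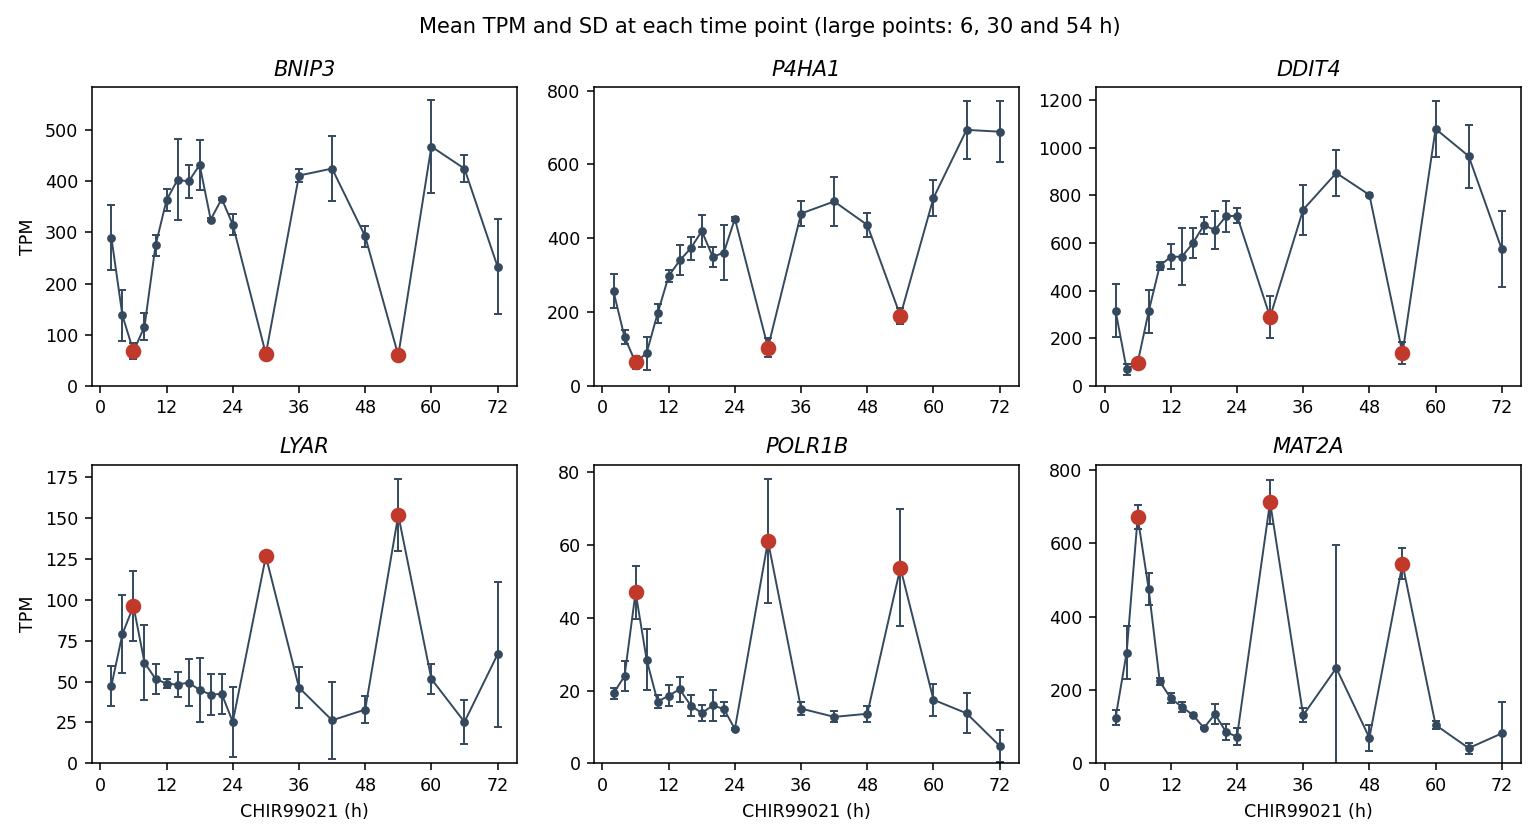
Mean TPM (y axes, from 0) with SD at each of the 20 time points (x axes, h of CHIR99021) for 3 genes lower and 3 higher at 30 h, with 6, 30 and 54 h as large red points. BNIP3 is at 62.0 TPM at 30 h and MAT2A at 713 TPM, and MAT2A has a wide SD at 42 h.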

How the data were processed

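RNA-seq libraries of 20 time points of CHIR99021 (59 libraries, 3 per time point and 2 at 48 h) were used as the TPM table that the authors deposited. Per the submitters' processing notes the tools were CASAVA 1.8.2, Bowtie 0.12.8 and RSEM 1.2.3, with the build hg19. Which gene annotation was used is not stated in the sources at hand. TPM have the same sum in each library, so depth is unknown and a gene's value also moves with the others.

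Values were taken as log2(TPM + 1), with a pseudocount of 1 TPM, so differences of low genes are understated. Of 19084 genes, the 15305 that reached 1 TPM in 3 or more libraries were tested. limma 3.58.1 in R 4.3.3 was fitted with the mean of each time point over all 59 libraries (39 residual degrees of freedom), with a trend of the variance on the mean level and p-values adjusted by Benjamini-Hochberg over all 15305 genes at 0.05. Contrasts were 30 h minus the mean of 24 h and 36 h (called higher or lower, as a description), 36 h minus 24 h, 54 h minus the mean of 48 h and 60 h, and the difference between the departures at 54 h and 30 h (also a description, since it uses 30 h). Tables and figures were made in Python 3.11.15 with pandas 2.3.3 and matplotlib 3.10.9.

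The comparison, its members and the 36 gene lists were chosen with earlier results of these data known, and 5 further lists were added after the values were seen. Named genes are the 12 highest and 12 lowest called at 30 h with a mean of at least 5 TPM and no overlap, up to 5 called members of each list by size and up to 3 not called by level, members that went against their list, all HIF regulators and clock genes, and the 5 highest and 5 lowest of 36 h minus 24 h. Some genes that this rule names are not reported here. Genes named for other reasons were chosen after their values were seen.

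The fit was tested on simulated data of 15305 genes: for 30 h, 21% of 100 genes with a log2 change of 1 were recovered and 58% of 100 with a log2 change of 2, with 5 false calls. Alternatives were other pseudocounts, filters, scalings, neighbours and fits, a replicate term, and leaving out libraries. Promoters came from RefSeq on GRCh38.p14, matched by symbol for 12283 of the tested genes (80.3%); no other coordinates were used, since the files use another build.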

Additional observations from a re-analysis of the deposited data

Results flagged for a closer look

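In 6 of 15305 genes the departure at 54 h minus that at 30 h was past the threshold in limma. The contrast uses the libraries by which 30 h was chosen, so the values are given as a description, without p. For DDIT4, the mTORC1 inhibitor, the departure at 54 h minus that at 30 h was -1.44 on the log2 scale. For INSIG1, which holds back cholesterol synthesis, it was -1.61, and each library of 54 h stood below its neighbours while the departure at 30 h was -0.10. U2SURP, of the spliceosome, gave 1.43, with 164, 150.5 and 146 TPM at 54 h and 109, 97.3 and 119 TPM at 30 h. YTHDC1, a nuclear reader of methylated adenosine in RNA, gave 1.31: it was below its neighbours in each library of 30 h and above them in each of 54 h. BHLHA15, listed at 0 in the 14 other libraries of these 2 comparisons, was at 14.2, 11.8 and 3.49 TPM at 54 h, a difference of 3.26. DBX1, a factor of spinal interneuron progenitors, gave 4.18 on levels of at most 13.7 TPM.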

How the results depend on the processing

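The 688 calls at 30 h came to between 577 and 866 with other pseudocounts, filters, scalings and without the intensity trend; with quantile normalization 475 were lower. Against 36 h alone there were 294 (173 higher, 121 lower), and against the mean of 22, 24, 36 and 42 h 1127 (729 higher). Leaving out 1 replicate label at every time point gave 184 to 497 calls at 30 h (105 to 263 higher, 79 to 234 lower), 7 to 24 for 36 h minus 24 h, 215 to 1164 at 54 h and 0 to 5 for the difference of departures. Leaving out 1 library of the contrast gave 333 to 584 at 30 h (198 to 328 higher, 135 to 261 lower), 25 to 57 for 36 h minus 24 h and 784 to 1245 at 54 h. With only the contrast's libraries in the fit, 36 h minus 24 h gave 8, and with a pseudocount of 0.1 TPM the difference of departures gave 3. In an alternative chosen after seeing the data, the 3 libraries of other time points with under 10000 genes at 1 TPM were left out: 1707 genes were then called at 30 h (977 higher, 730 lower), 220 for 36 h minus 24 h, 2598 at 54 h and 18 for the difference of departures. The cause was not tested.

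NR1D2 and HOXB9 turned sign in 30 h minus 24 h alone, at -0.086 and 0.11, and HSPA8 in 30 h minus 36 h alone, at -0.075. Of 6264 values of single genes at 30 h over these settings, 5740 stayed on the same side of the threshold, 421 lost the call and 100 gained a call. The 6264 values include those of genes not called, which have no call to lose. The 421 losses are thus a larger part of the values of called genes than of all 6264. Depth is unknown, which limits what can be said of low genes.

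With the replicate labels as a block the calls were 682 at 30 h (390 higher, 292 lower), 53 for 36 h minus 24 h, 1276 at 54 h and 6 for the difference of departures. The labels do not say that a shared label marks a pairing. Deviations of libraries with the same label correlated at -0.018 to 0.027 (9 pairs) and those with other labels at -0.037 to 0.028 (18 pairs), and 4 of 9 correlated best with their own label.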

Other observations

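Splicing factors were higher at 30 h, a group noticed after the values were seen and so given as counts alone. Of the 12 SRSF genes and the related TRA2A and TRA2B, which select splice sites, 8 of 14 were called higher and none lower, beside 2.55% of all genes higher, with a median of 0.94 on the log2 scale against 0 over all genes. SRSF6 was at 92.9, 72.9 and 99.9 TPM at 24 h, 428, 424 and 480.0 TPM at 30 h and 114, 126 and 135 TPM at 36 h, and SRSF2 at 133, 186 and 243 TPM, then 898, 963 and 794 TPM, then 323, 303 and 379 TPM. Neither overlapped between 30 h and its neighbours, as was so for SRSF3, SRSF7 and TRA2B. SRSF4, SRSF9, SRSF11 and SRSF12 differed by -0.19, 0.23, -0.25 and -0.03 and were not called. At 54 h 9 of the 14 were higher, beside 6.54% of all genes, with a median of 1.30. Of the paraspeckle proteins, also listed after the values were seen, PSPC1 differed by 1.62 ± 0.22 and SFPQ was called too. NONO, their abundant partner, was at -0.16.

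The synthetase, methionine and RFX lists that follow were likewise written after the values were seen, so their counts are a description alone. Of 20 cytosolic aminoacyl-tRNA synthetases, which charge tRNAs, 6 were called higher and none lower, beside 2.55% of all genes higher. Their median was 0.46. Leaving out the libraries labelled A1 left 1 call, leaving out those labelled A2 left 4, and there were 10 without the 3 libraries with few detected genes. The largest differences were those of FARSB, TARS and RARS at 1.48, 1.31 and 1.16. DARS and NARS differed by -0.30 and 0.18. Among 17 genes of methionine, S-adenosylmethionine and polyamine metabolism 4 were called higher beside 2.55% of all genes, MAT2A, MTAP, AMD1 and AZIN1, the last 3 at 1.41, 1.28 and 0.84. ODC1, the first enzyme of polyamine synthesis, differed by 0.34. Of 7 tested RFX factors, several of which drive cilium genes, RFX2, RFX3 and RFX4 were called lower, beside 1.95% of all genes, at -2.52, -1.67 and -2.00, and RFX4 was at 37.6, 9.02 and 31.3 TPM at 30 h against 66.7 to 147 TPM in its neighbours. At 54 h RFX3 and RFX4 were lower again and RFX2 did not pass.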
